A study of Mus musculus with 24 samples.

Results

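How the liver's response to a diet short of methyl donors differed between the mouse strains WSB/EiJ and C3H/HeJ was measured as a difference of differences. The diet effect in WSB/EiJ (deficient minus control diet) was taken, and the diet effect in C3H/HeJ was subtracted from it. All 4 groups that enter this contrast were used, which is 16 of the 24 arrays and 4 of the 6 groups of the series, and 15396 genes were tested. The groups were WSB/EiJ mice on the deficient diet, WSB/EiJ mice on the control diet, C3H/HeJ mice on the deficient diet and C3H/HeJ mice on the control diet, with 4 arrays each. All mice were males aged 20 weeks at collection and had been on their diet for 12 weeks. The deficient diet, which the labels call CFD, held 0.17% methionine and neither choline nor folic acid. The control diet was the same iron-supplemented l-amino acid-defined feed, to which methionine was added at 0.4%, choline bitartrate at 0.3% and folic acid at 2 mg/kg. Both strains are inbred, WSB/EiJ being derived from wild house mice and C3H/HeJ being a laboratory strain known for a loss-of-function Tlr4 allele. The series' title puts strain-to-strain variation of fatty liver injury and of lipid metabolism genes at its centre.

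Choline, methionine and folate feed the methyl cycle of the liver, which makes S-adenosylmethionine and, from it, phosphatidylcholine. Hepatocytes need phosphatidylcholine to build very low density lipoprotein, so animals without these nutrients store triglyceride in the liver, and long feeding leads to cell death, inflammation, matrix deposition and regeneration. The severity of this injury is known to vary between inbred strains.

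Each value below is a log2 level on 1 array, scaled so that the 75th percentile of the array's gene probes is 0. Chromosome positions beside a gene are those of its probe on the mouse build mm9, as the files give them. Effects and differences are log2 values with ± the standard error of the linear model fitted with limma, and a gene is called when its Benjamini-Hochberg adjusted p over all 15396 genes is under 0.05. Mice were allocated at random per the labels. Whether every array stands for its own animal is not stated there, so the p-values reflect only how these samples scatter, which may be technical. On the 16 arrays 44.8% to 56.0% of the gene spots exceeded background clearly, and 0 were saturated. The hepatocyte markers, albumin among them, were well above background in every group, as the tissue label requires. The 75th percentile of the processed signal, which the scaling removes, was at most 315 in the WSB/EiJ deficient group, 157 in the WSB/EiJ control group, 305 in the C3H/HeJ deficient group and 193 in the C3H/HeJ control group, and its part in the differences was not tested. Along the first principal component (55.4% of the variance) the WSB/EiJ deficient arrays lay at 83.3 to 117.2, the WSB/EiJ control arrays at -66.2 to -60.1, the C3H/HeJ deficient arrays at -16.5 to 55.6 and the C3H/HeJ control arrays at -76.4 to -65.5. C3H/HeJ deficient replicate 4 was the array at -16.5, nearest to the controls, and the other 3 of its group lay at 17.1, 44.5 and 55.6. The spread between replicates was also widest in that group, with a median SD over genes of 0.25, against 0.18, 0.16 and 0.21 in the WSB/EiJ deficient, WSB/EiJ control and C3H/HeJ control groups. The median difference over all genes was -0.15 and depends on the scaling: it was 0.00 with quantile normalization and 0.37 with scaling on spike-in probes.

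Promoters of interferon response genes, many of which responded differently in the strains, are shown first. Type I interferon acts through a complex of transcription factors on interferon-stimulated response elements, whose core repeats TTTC after a gap of 2 bases. That motif, TTTC followed by any 2 bases and TTTC again, was looked for on both strands in RefSeq promoters (250 bases before to 50 after the start, build GRCm38.p6), where overlapping matches were counted separately. Of the 29 tested members of the list 22 had a promoter in the table and 15 (68.2%) held the motif, against 3.99% of all 27025 genes with a promoter there. Among the members whose diet response was higher in WSB/EiJ, 8 of 13 (61.5%) held it. The promoters of 4 members are shown with the motif in capitals, 2 whose difference was among the clear ones (Oas1a and Isg15), 1 without a called difference (Gbp7) and 1 with a called difference in the other direction (Igtp). Isg15, Gbp7 and Igtp were chosen after their values were seen.

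Oas1a, chr5:120907476-120907775, minus strand: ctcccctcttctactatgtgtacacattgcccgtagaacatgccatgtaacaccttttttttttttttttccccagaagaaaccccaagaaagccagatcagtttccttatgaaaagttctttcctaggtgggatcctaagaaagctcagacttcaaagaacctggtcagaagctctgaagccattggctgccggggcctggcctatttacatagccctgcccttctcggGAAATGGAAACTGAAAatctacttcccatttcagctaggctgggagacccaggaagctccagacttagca
Isg15, chr4:156200769-156201068, minus strand: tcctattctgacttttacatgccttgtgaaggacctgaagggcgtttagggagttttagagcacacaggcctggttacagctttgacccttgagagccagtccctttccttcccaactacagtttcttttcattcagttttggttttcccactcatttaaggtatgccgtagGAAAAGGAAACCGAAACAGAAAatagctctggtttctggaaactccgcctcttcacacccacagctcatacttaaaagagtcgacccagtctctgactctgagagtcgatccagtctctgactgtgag
Gbp7, chr3:142530086-142530385, plus strand: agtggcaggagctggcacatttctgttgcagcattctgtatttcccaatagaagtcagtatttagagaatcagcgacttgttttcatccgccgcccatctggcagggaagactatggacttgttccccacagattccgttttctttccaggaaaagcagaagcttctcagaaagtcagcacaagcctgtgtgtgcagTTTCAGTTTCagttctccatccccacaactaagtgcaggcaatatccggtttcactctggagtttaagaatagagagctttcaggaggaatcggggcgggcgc
Igtp, chr11:58199306-58199605, plus strand: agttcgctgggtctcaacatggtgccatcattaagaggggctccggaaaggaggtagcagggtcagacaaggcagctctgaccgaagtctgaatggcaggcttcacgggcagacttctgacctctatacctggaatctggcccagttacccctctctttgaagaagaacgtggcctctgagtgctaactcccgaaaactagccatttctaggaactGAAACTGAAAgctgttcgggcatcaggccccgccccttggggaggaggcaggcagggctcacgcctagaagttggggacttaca

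The difference was 4.37 for Oas1a, 2.25 for Isg15, 0.10 for Gbp7 and -1.19 for Igtp (adjusted p = 9.88e-09, 0.000109, 0.855 and 0.00541). The letters are thus present in promoters of members of each kind, and a match describes a sequence, not a bound site.

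The responses of the strains differed in 3476 of 15396 genes, or 22.6% of those tested. The diet effect was higher in WSB/EiJ in 1390 genes (9.03%) and lower in 2086 (13.5%). These shares over all genes are the background for the counts of every list below. Across genes the diet effects of the strains, which share no arrays, correlated with r = 0.82, and effects were larger in WSB/EiJ, with an SD over genes of 1.40 against 0.87 in C3H/HeJ. Diet effects were called in 11061 genes (71.8%) in WSB/EiJ, where 3814 rose (24.8%) and 7247 fell (47.1%). In C3H/HeJ they were called in 6632 genes (43.1%), of which 2767 rose (18%) and 3865 fell (25.1%). By the signs of the fitted effects, called or not, 2560 of the 3476 genes had the same sign in both strains and the larger effect in WSB/EiJ. In 93 the sign was the same and the effect in C3H/HeJ was larger, and in 823 the signs were opposite. Both effects were themselves called with opposite signs in 122 genes.

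Among the genes with a higher response in WSB/EiJ, 744 rose in both strains and 542 rose in WSB/EiJ without a called effect in C3H/HeJ. Among those with a lower response, 1066 fell in WSB/EiJ without a called effect in C3H/HeJ, 783 fell in both strains, and 89 fell in WSB/EiJ while they rose in C3H/HeJ. The difference was at least 1 on the log2 scale in 1711 genes. By the fitted group means alone, the order of the strains turned between the control and the deficient diet in 2050 of the called genes. In 846 the gap between the strains widened and in 580 it narrowed. The gaps themselves did not have to be called, so a turn can rest on nearly equal levels. These kinds were not counted over all genes. The balance of directions rests on the scaling: 40.0% of calls were higher with the 75th percentile, 88.1% with spike-in scaling, 64.7% with median centring, 62.8% with normexp correction and 57.5% with quantile normalization. Each of the 3 slides held arrays of all 4 groups, and a fixed slide term left 1213 genes higher and 1635 lower. Leaving out single arrays gave 2543 calls (without C3H/HeJ deficient replicate 3) to 4318 (without C3H/HeJ deficient replicate 2), and 2905 without C3H/HeJ deficient replicate 4.

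**Figure D1:**
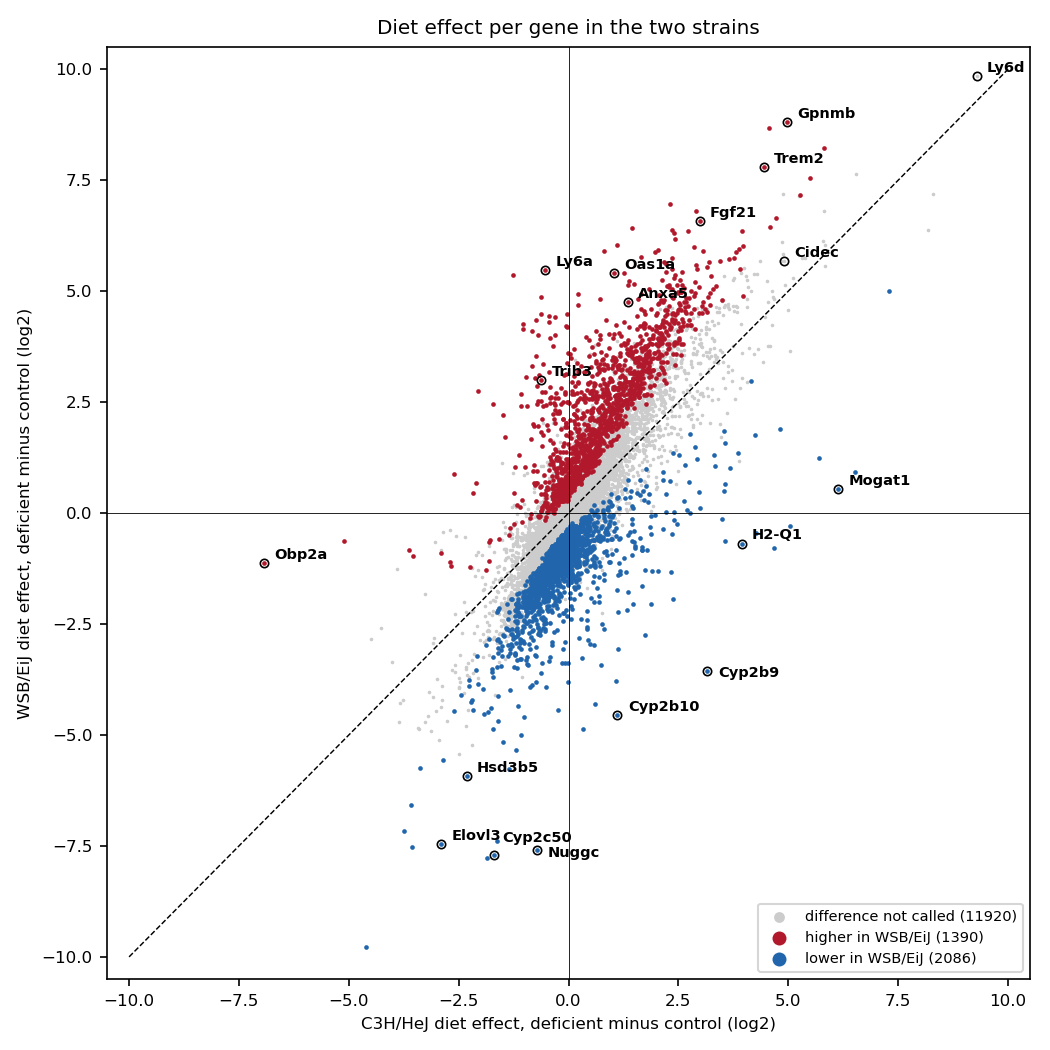
Diet effect of each of 15396 genes in C3H/HeJ (horizontal axis) and WSB/EiJ (vertical axis), deficient minus control diet, log2, with equal effects on the dashed line. Red points are the 1390 genes with a higher response in WSB/EiJ, blue points the 2086 with a lower one and grey points the genes without a called difference, and the cloud is steeper than the dashed line.

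Interferon-stimulated genes, which block viral replication and amplify interferon signalling, responded more strongly in WSB/EiJ. Of 29 members tested, 18 were higher and 3 lower, with a median difference of 1.42, against -0.15 over all genes. The median diet effect of the list was 2.54 in WSB/EiJ and 0.91 in C3H/HeJ, and the median difference kept its sign within each slide (1.86, 1.71 and 0.97). Oas1a (chromosome 5, 121346735 to 121346794), an oligoadenylate synthetase that activates RNase L, had levels of 6.81, 6.72, 7.06 and 6.57 in the WSB/EiJ deficient group and 1.57, 1.2, 1.30 and 1.49 in the WSB/EiJ control group, against 4.73, 4.72, 4.48 and 4.63 in the C3H/HeJ deficient group and 3.61, 3.36, 3.91 and 3.55 in the C3H/HeJ control group. The groups did not overlap, and WSB/EiJ was lowest of all on the control diet and highest on the deficient one. The difference of responses was 4.37 ± 0.19, adjusted p = 9.88e-09, from effects of 5.40 ± 0.13 in WSB/EiJ and 1.04 ± 0.13 in C3H/HeJ.

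Its neighbour Oas1f, of the same gene family, differed by 4.14 ± 0.34, adjusted p = 5.99e-06, and sequence shared within the family could let 1 probe read more than 1 gene. Ifi44, an interferon-induced cytoplasmic protein, averaged 2.27 ± 0.35 and -3.50 ± 0.20 in WSB/EiJ deficient and control livers, against 1.01 ± 0.29 and -0.63 ± 0.41 in C3H/HeJ deficient and control livers (SD, n = 4) (difference 4.12 ± 0.31, adjusted p = 3.05e-06). Ifi27l2a, a small interferon-induced mitochondrial protein, rose by 5.17 in WSB/EiJ and 1.49 in C3H/HeJ (difference 3.68 ± 0.35, adjusted p = 1.67e-05). Ifi27l2b, from the same cluster on chromosome 12, rose by 8.67 and 4.55 (difference 4.12 ± 0.37, adjusted p = 1.29e-05), and its other probe gave 1.97. Not all members followed: besides Igtp, an interferon-gamma-induced GTPase, the signalling factor Stat2 (-0.37) was lower, and it was named after its values were seen. With spike-in scaling 0 members were lower. The count of higher members was 17 to 19 when 1 array was left out and 19 without C3H/HeJ deficient replicate 4.

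**Figure D2:**
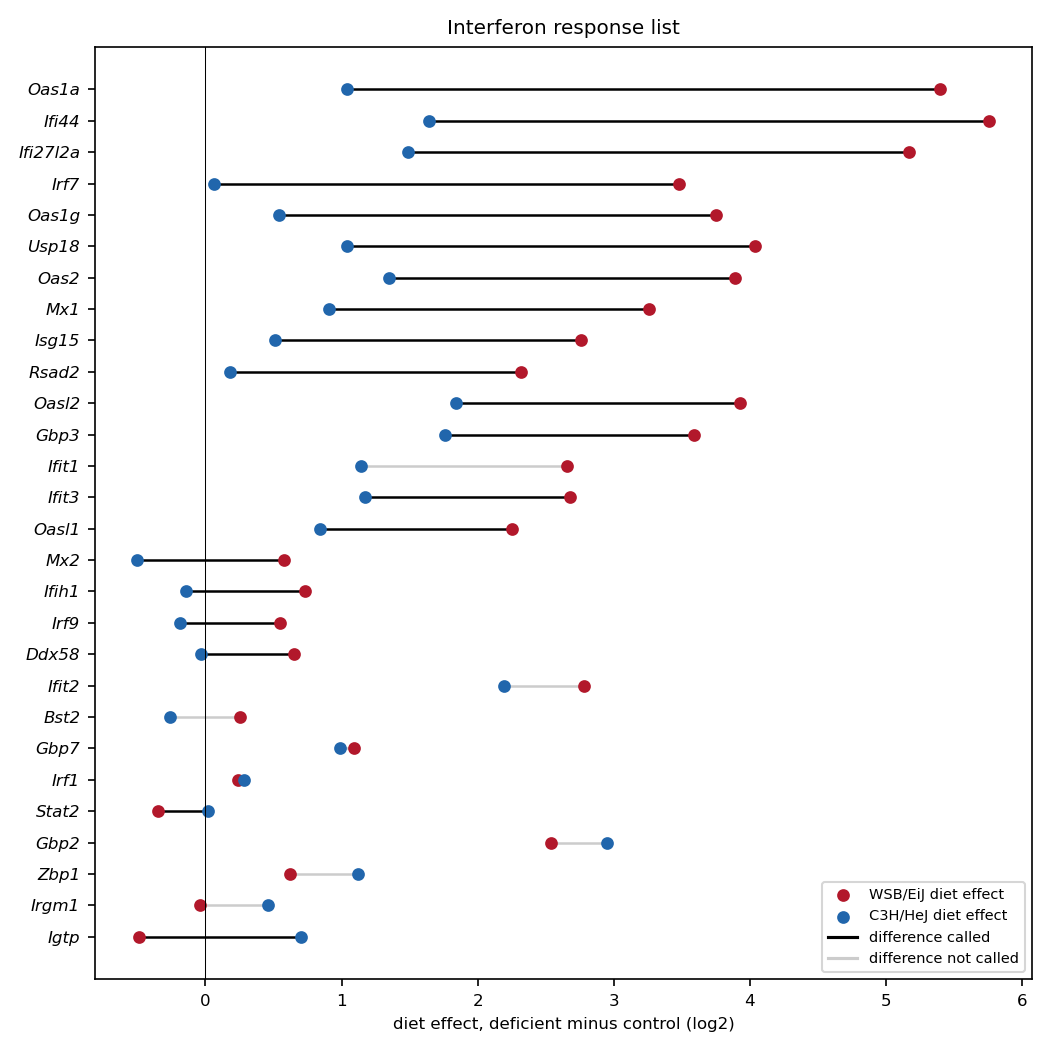
Diet effects (log2, deficient minus control) of 28 interferon response genes in WSB/EiJ (red) and C3H/HeJ (blue), joined by a black line where the difference was called and a grey one where it was not. Of these, 18 genes have the red point called to the right of the blue one and 2, Stat2 and Igtp, to the left.

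Macrophage genes also rose further in WSB/EiJ. Of 23 macrophage and monocyte markers, 17 were higher and 0 lower (0 lower at an unadjusted p under 0.05 either), with a median difference of 2.03. Of 16 genes of lipid-associated macrophages, the cells that gather around fat-laden hepatocytes, 10 were higher and 0 lower (2 lower at an unadjusted p under 0.05, 1 lower without C3H/HeJ deficient replicate 2 or C3H/HeJ control replicate 4), with a median of 2.19. Trem2 (chromosome 17, 48491537 to 48491596), the lipid-sensing receptor that marks these cells, had levels of 5.0, 4.97, 4.47 and 4.94 in the WSB/EiJ deficient group and -2.55, -3.13, -3.26 and -2.87 in the WSB/EiJ control group, against 1.69, 2.89, 1.90 and 1.05 in the C3H/HeJ deficient group and -2.11, -2.46, -2.06 and -3.62 in the C3H/HeJ control group. The diet groups did not overlap in either strain, the control groups of the strains overlapped each other, and all 4 WSB/EiJ deficient arrays lay above all C3H/HeJ deficient ones. The difference was 3.35 ± 0.52, adjusted p = 0.00066, with effects of 7.80 ± 0.37 in WSB/EiJ and 4.44 ± 0.37 in C3H/HeJ.

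Gpnmb, a lysosomal glycoprotein of the same cells, was not well above background on any control array. It rose at least 164-fold in WSB/EiJ and at least 6.67-fold in C3H/HeJ, where the dim group is set at the higher of its own signal and the lowest signal well above background on that array, and the fitted difference was 3.84 ± 0.60, adjusted p = 0.000708. Cd68, a lysosomal protein of macrophages, averaged 4.19 ± 0.17 and 0.00 ± 0.06 in WSB/EiJ deficient and control livers, against 2.91 ± 0.47 and 1.21 ± 0.36 in C3H/HeJ deficient and control livers (SD, n = 4) (difference 2.49 ± 0.29, adjusted p = 7.4e-05). Lgals3, the galectin of activated macrophages, differed by 2.84 ± 0.40, adjusted p = 0.000318, Cd9, a tetraspanin, by 1.92 ± 0.27, adjusted p = 0.000348 and Cx3cr1, the fractalkine receptor of monocytes, by 3.91 ± 0.43, adjusted p = 5.16e-05. Ctss, the cathepsin that processes antigens, differed by 2.12 ± 0.42, adjusted p = 0.00307. In Cx3cr1 2 of the 4 WSB/EiJ control arrays were above background and a dimmer probe gave a difference of 2.14, so the size of its change is uncertain.

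The summed signal of the 7 macrophage markers, all of which were higher, was 6.65 to 6.93 in the WSB/EiJ deficient group, 3.57 to 3.82 in the WSB/EiJ control group, 5.24 to 6.35 in the C3H/HeJ deficient group and 4.28 to 4.68 in the C3H/HeJ control group. In bulk tissue more cells of a type and more RNA per cell cannot be told apart. Kupffer cells are the resident macrophages of the liver. Of 8 resident Kupffer cell genes 0 were called in either direction by limma (1 higher and 0 lower at an unadjusted p under 0.05, 2 higher and 1 lower with array weights, 1 higher without WSB/EiJ deficient replicate 4), with a median difference of 0.30. The summed level of 5 Kupffer cell markers was 5.69 to 6.85, 4.89 to 5.23, 6.37 to 6.99 and 5.74 to 6.57 in the WSB/EiJ deficient, WSB/EiJ control, C3H/HeJ deficient and C3H/HeJ control groups.

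**Figure D3:**
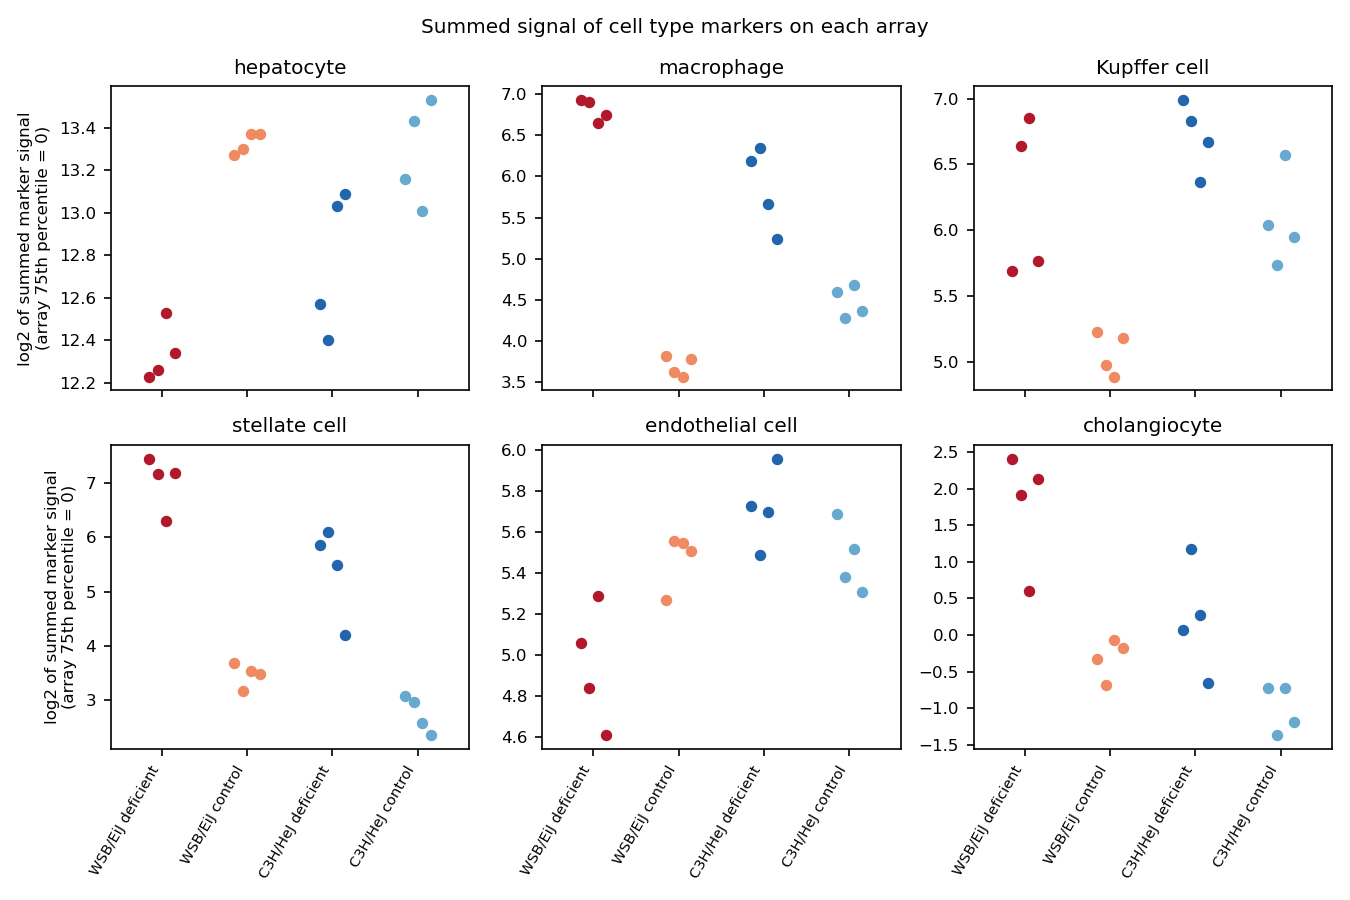
Log2 of the summed signal of the markers of 6 cell types on each of the 16 arrays, by group. Macrophage markers run from 3.57 in WSB/EiJ control livers to 6.93 in WSB/EiJ deficient livers and span less in C3H/HeJ. Hepatocyte markers reach lowest in WSB/EiJ deficient livers (12.23 to 12.53), which overlap C3H/HeJ deficient livers (12.4 to 13.09).

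Other immune lists had fewer calls. Of 21 chemokines and inflammatory mediators 4 were higher and 1 lower, which is 23.8% called, close to the 22.6% over all genes. The 4 became 7 without C3H/HeJ deficient replicate 1 or WSB/EiJ control replicate 4, while 2 and 3 were lower without C3H/HeJ deficient replicates 3 and 4. Ccl6, a macrophage-attracting chemokine, averaged 4.18 ± 0.23 and -0.06 ± 0.53 in WSB/EiJ deficient and control livers, against 1.79 ± 0.57 and 0.09 ± 0.30 in C3H/HeJ deficient and control livers (SD, n = 4) (difference 2.54 ± 0.40, adjusted p = 0.000719). Ccl7, a monocyte attractant below background on every control array, rose at least 22.7-fold in WSB/EiJ and 2.93-fold in C3H/HeJ (fitted difference 2.24 ± 0.53, adjusted p = 0.00876, not called with all 24 arrays in the fit, adjusted p = 0.0586). Ccl2, its neighbour and the main monocyte attractant, rose by 5.22 and 4.51, and the difference was 0.70 ± 0.75, adjusted p = 0.503, with a 95% interval of -0.89 to 2.30. It was called without WSB/EiJ control replicate 4 (1.40, adjusted p = 0.0388), which lay at 0.54, against -2.67 to -1.81 on the other 3 arrays of its group. Tlr4, the receptor for bacterial endotoxin, whose C3H/HeJ allele is defective in signalling, rose by 2.43 and 1.23 at the RNA level (difference 1.2 ± 0.28, adjusted p = 0.00803).

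Of 9 genes of MHC class II antigen presentation 8 rose in WSB/EiJ and 9 in C3H/HeJ, with medians of 3.76 and 3.94, and 2 were higher and 1 lower in the difference, with 1 higher without WSB/EiJ deficient replicate 1, 2 or 4, WSB/EiJ control replicate 1, 2 or 3, C3H/HeJ deficient replicate 3 or C3H/HeJ control replicate 3 or 4. The lower one was H2-Aa, a class II chain, whose probe was below background on all 8 WSB/EiJ arrays and rose at least 11.2-fold in C3H/HeJ (fitted difference -5.45 ± 0.68, adjusted p = 0.000127). H2-Q1, a class I gene, averaged -3.0 ± 0.23 and -2.31 ± 0.48 in WSB/EiJ deficient and control livers, against 3.85 ± 1.10 and -0.09 ± 0.69 in C3H/HeJ deficient and control livers (SD, n = 4) (difference -4.63 ± 0.64, adjusted p = 0.000306). Both genes lie in the MHC, which is known for variation between strains, and whether the probes match the WSB/EiJ sequence was not tested. Of 14 lymphocyte markers 1 was higher and 0 lower (1 lower at an unadjusted p under 0.05), and that 1 call held only without C3H/HeJ deficient replicate 1 or WSB/EiJ deficient replicate 2 or 3 when arrays were left out in turn. Of 6 neutrophil markers 1 was higher and 1 lower. The lower one was Ly6g (-1.04 ± 0.23, adjusted p = 0.00668, and -0.51, adjusted p = 0.111 with spike-in scaling), and the higher one lost its call without C3H/HeJ deficient replicate 3 or 4, C3H/HeJ control replicate 3, WSB/EiJ control replicate 2 or 3 or WSB/EiJ deficient replicate 2. The lower count was 2 without C3H/HeJ deficient replicate 2, C3H/HeJ control replicate 2 or WSB/EiJ deficient replicate 3. Of 21 acute phase genes 1 was higher and 4 lower (23.8% called), and this balance turned with the scaling. Of the same genes 5 were higher and 2 lower with quantile normalization, 4 and 2 with normexp correction and 4 and 1 with spike-in scaling. The lower count was 2 when any array was left out other than WSB/EiJ deficient replicate 3, WSB/EiJ control replicate 1, C3H/HeJ deficient replicate 1 or 2 or C3H/HeJ control replicate 4. Saa3, the serum amyloid A made outside hepatocytes too, was the higher one (2.24 ± 0.37, adjusted p = 0.00104), and Crp, C-reactive protein, was lower (-1.63 ± 0.30, adjusted p = 0.00209).

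Matrix genes rose in both strains, and a minority differed. Of 40 matrix and stellate cell activation genes 37 rose in WSB/EiJ and 34 in C3H/HeJ (medians 2.50 and 1.74), and in the difference 8 were higher and 1 lower (median 0.95). Thus 22.5% of the list was called, against 22.6% of all genes. The count of higher members was 16 with normexp correction, 14 with spike-in scaling, 16 without C3H/HeJ deficient replicate 2, 17 without WSB/EiJ deficient replicate 3 and 5 without WSB/EiJ deficient replicate 1 or 2. Col1a1 (chromosome 11, 94813115 to 94813174), the main fibrillar collagen of scar tissue, had levels of 6.22, 6.06, 4.97 and 5.97 in the WSB/EiJ deficient group and 0.61, -0.26, 0.45 and 0.31 in the WSB/EiJ control group, against 4.49, 4.68, 4.13 and 2.19 in the C3H/HeJ deficient group and 0.42, 0.39, -0.77 and -0.51 in the C3H/HeJ control group. Deficient and control arrays did not overlap in either strain, and WSB/EiJ deficient replicate 3 and C3H/HeJ deficient replicate 4 were the lowest of their groups. Its difference was 1.54 ± 0.67, adjusted p = 0.107, which did not pass, and the 95% interval was 0.10 to 2.97.

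Loxl2, a lysyl oxidase that cross-links collagen, rose by 2.15 in WSB/EiJ and had an effect of 0.20 in C3H/HeJ by its brightest probe (difference 1.95 ± 0.20, adjusted p = 2.66e-05). Its dimmer probes rose in both strains, by 2.68 and 3.14 in WSB/EiJ and by 1.86 and 2.64 in C3H/HeJ (differences 0.82 and 0.50). The probes thus disagree on the C3H/HeJ effect. Timp1, an inhibitor of matrix-degrading proteases, rose by 6.45 and 4.57 (difference 1.88 ± 0.55, adjusted p = 0.0256, not called without WSB/EiJ deficient replicate 1, 2 or 4, adjusted p = 0.0509 to 0.054, with a fixed slide term, 0.0504, or with all 24 arrays in the fit, 0.097). Acta2, the smooth muscle actin of myofibroblasts, had a difference of 0.17 ± 0.57, adjusted p = 0.845 with an interval of -1.05 to 1.39. Spp1, osteopontin, had a difference of 1.37 ± 0.68, adjusted p = 0.153 with an interval of -0.09 to 2.83. Spp1 was called without WSB/EiJ deficient replicate 3 (1.88, adjusted p = 0.0243). Col5a2, a collagen chain of fibrils, was the 1 lower member: it fell by 1.95 in WSB/EiJ and rose in C3H/HeJ (fitted effect 2.39, at least 1.58-fold; difference -4.33 ± 0.50, adjusted p = 6.19e-05). Of the 6 stellate cell markers 0 were called (2 higher at an unadjusted p under 0.05), with summed levels of 6.31 to 7.46, 3.16 to 3.67, 4.20 to 6.11 and 2.34 to 3.06 in the WSB/EiJ deficient, WSB/EiJ control, C3H/HeJ deficient and C3H/HeJ control groups.

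Proliferation genes rose further in WSB/EiJ. Of 37 cell cycle genes 21 were higher and 3 lower (median difference 1.01, 19 to 24 higher when 1 array was left out). Mki67 (chromosome 7, 142881591 to 142881650), the antigen Ki-67 of cycling cells, had levels of 2.66, 2.91, 2.57 and 2.59 in the WSB/EiJ deficient group and -1.85, -1.56, -2.39 and -2.16 in the WSB/EiJ control group, against 1.49, 1.66, 1.26 and 1.53 in the C3H/HeJ deficient group and -1.58, -1.90, -1.36 and -1.35 in the C3H/HeJ control group. All 4 WSB/EiJ deficient arrays lay above all C3H/HeJ deficient ones, whereas the control groups overlapped. The difference was 1.64 ± 0.24, adjusted p = 0.000485, with rises of 4.67 and 3.03. Ube2c, the ubiquitin-conjugating enzyme of the anaphase-promoting complex, differed by 2.84 ± 0.34, adjusted p = 9.41e-05.

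Ccnd1, the G1 cyclin D1, was among the lower members: it rose by 2.98 in WSB/EiJ and 4.14 in C3H/HeJ (difference -1.16 ± 0.34, adjusted p = 0.025). That call was lost with median centring (-1.04, adjusted p = 0.055), spike-in scaling (-0.64, 0.298), quantile normalization (-0.98, 0.0892) and normexp correction (-0.90, 0.0959). It was also lost with a fixed slide term (-1.14, 0.0502) and without WSB/EiJ deficient replicate 2 or 4 (-1.12, 0.0506, and -1.10, 0.0517). The count of lower cell cycle genes was 0 with median centring, 2 with quantile normalization, 1 with normexp correction or spike-in scaling, and 1 without WSB/EiJ deficient replicate 2 or 4. Of 21 p53 and DNA damage genes 7 were higher and 2 lower (42.9% called, against 22.6% of all genes), with 4 higher without WSB/EiJ deficient replicate 1 and 1 lower without WSB/EiJ deficient replicate 2 or 4, WSB/EiJ control replicate 3 or C3H/HeJ deficient replicate 3. Gadd45a, a stress-induced growth arrest protein, averaged 1.72 ± 0.43 and -0.74 ± 0.38 in WSB/EiJ deficient and control livers, against 1.60 ± 0.14 and 1.77 ± 0.41 in C3H/HeJ deficient and control livers (SD, n = 4) (difference 2.63 ± 0.34, adjusted p = 0.000158), and Bbc3, the proapoptotic protein PUMA, differed by 1.21 ± 0.22, adjusted p = 0.00176. The probes of Cdkn1a, the kinase inhibitor p21, disagreed, one with a difference of -2.49 and the other, dimmer one with 1.54, and normexp correction gave -0.26, adjusted p = 0.698.

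Of 22 fetal and tumour-associated genes, which hepatocytes switch off after birth and which return in regenerating or transformed liver, 8 were higher and 0 lower (0 lower at an unadjusted p under 0.05), with a median difference of 1.05. The share called was 36.4%, against 22.6% of all genes. Anxa5 (chromosome 3, 36348065 to 36348124), a phospholipid-binding annexin, had levels of 6.68, 6.54, 6.63 and 6.59 in the WSB/EiJ deficient group and 1.89, 1.68, 1.94 and 1.94 in the WSB/EiJ control group, against 5.75, 5.78, 5.44 and 5.11 in the C3H/HeJ deficient group and 4.30, 3.97, 4.20 and 4.24 in the C3H/HeJ control group. The 4 groups did not overlap, and WSB/EiJ held both the lowest and the highest one. The difference was 3.41 ± 0.19, adjusted p = 1.78e-07. Afp, alpha-fetoprotein, averaged 4.26 ± 0.75 and 0.19 ± 0.15 in WSB/EiJ deficient and control livers, against 1.48 ± 0.49 and -0.72 ± 0.28 in C3H/HeJ deficient and control livers (SD, n = 4) (difference 1.87 ± 0.44, adjusted p = 0.0087). Akr1c18, an aldo-keto reductase of progesterone catabolism, differed by 3.12 ± 0.43, adjusted p = 0.000268, and Nrg1, a growth factor for ErbB receptors, by 1.89 ± 0.41, adjusted p = 0.00543. H19, an imprinted fetal transcript, rose by 8.22 in WSB/EiJ and at least 33.9-fold in C3H/HeJ, and its difference of 2.41 ± 0.71, adjusted p = 0.0256 was not called without WSB/EiJ deficient replicate 1, WSB/EiJ control replicate 3 or C3H/HeJ deficient replicate 4 (adjusted p = 0.0522 to 0.0557), with a fixed slide term (0.0517) or with all 24 arrays in the fit (0.305). These values are of its brightest probe, and its dimmer probes gave differences of 3.45 to 4.27.

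Some genes with large rises had no called difference. Ly6d (chromosome 15, 74592551 to 74592610), a surface protein of the Ly6 family, had levels of 7.46, 6.65, 6.75 and 7.06 in the WSB/EiJ deficient group and -2.61, -3.42, -2.25 and -3.15 in the WSB/EiJ control group, against 6.52, 6.79, 6.46 and 5.44 in the C3H/HeJ deficient group and -2.98, -3.40, -3.12 and -2.42 in the C3H/HeJ control group. Deficient and control arrays were far apart and the strains overlapped on both diets. The rises were 9.84 and 9.28, and the difference of 0.55 ± 0.45, adjusted p = 0.373 had an interval of -0.40 to 1.51. Ubd, the ubiquitin-like modifier FAT10, rose by 7.18 and 8.28 (difference -1.10 ± 0.71, adjusted p = 0.264, interval -2.63 to 0.42), and Lcn2, the iron-sequestering lipocalin, by 5.09 and 4.08 (difference 1.01 ± 0.58, adjusted p = 0.209, interval -0.23 to 2.25). These intervals still allow differences of more than 1 log2 unit.

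Drug-metabolising cytochromes had the lowest median difference of the 36 lists. Of 31 tested, 21 were lower and 0 higher (0 higher at an unadjusted p under 0.05), with a median difference of -1.32 and median effects of -1.92 in WSB/EiJ and -0.75 in C3H/HeJ. That is 67.7% called, against 22.6% of all genes. Cyp2c50 (chromosome 19, 40188154 to 40188213), an arachidonic acid and drug oxidase, had levels of 0.19, 0.08, 1.39 and -0.02 in the WSB/EiJ deficient group and 8.13, 8.11, 8.12 and 8.08 in the WSB/EiJ control group, against 4.81, 4.73, 6.37 and 7.01 in the C3H/HeJ deficient group and 7.32, 7.79, 7.30 and 7.27 in the C3H/HeJ control group. The WSB/EiJ deficient arrays lay far below every other array, and in C3H/HeJ the diet groups did not overlap, with deficient replicates 3 and 4 closest to the controls. The difference was -6.01 ± 0.61, adjusted p = 2.66e-05. The neighbouring Cyp2c54 and Cyp2c37 differed by -5.91 ± 0.60, adjusted p = 2.53e-05 and -5.78 ± 0.64, adjusted p = 4.93e-05, and since these genes are near-identical in sequence their probes may read each other. Dimmer probes of Cyp2c54 gave -2.26 and -5.39, and that of Cyp2c37 gave -5.4. Cyp2c29, another member of the cluster, fell by 2.85 and 2.03 (difference -0.83 ± 0.38, adjusted p = 0.123, interval -1.63 to -0.02, but -1.04, adjusted p = 0.042 without C3H/HeJ deficient replicate 1). Cyp2c23, the rodent enzyme known as Cyp2c44 that makes epoxyeicosatrienoic acids, differed by -2.82 ± 0.26, adjusted p = 1.29e-05.

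Cyp2b10 (chromosome 7, 26711522 to 26711581), the classic target of the xenobiotic receptor CAR, had levels of -0.51, -1.79, -0.13 and -1.16 in the WSB/EiJ deficient group and 2.88, 3.28, 4.42 and 4.06 in the WSB/EiJ control group, against 4.71, 3.45, 6.04 and 4.31 in the C3H/HeJ deficient group and 3.46, 3.05, 4.37 and 3.20 in the C3H/HeJ control group. All 4 WSB/EiJ deficient arrays lay below all 12 others, while the 3 other groups overlapped. It fell by 4.56 in WSB/EiJ, the C3H/HeJ effect of 1.11 was not called, and the difference was -5.67 ± 0.73, adjusted p = 0.000159. Nr1i3, the gene of CAR itself, averaged 1.09 ± 0.42 and 4.00 ± 0.25 in WSB/EiJ deficient and control livers, against 4.15 ± 0.51 and 4.25 ± 0.23 in C3H/HeJ deficient and control livers (SD, n = 4) (difference -2.82 ± 0.35, adjusted p = 0.000109). Cyp2e1, the ethanol-inducible cytochrome of pericentral hepatocytes, fell by 1.90 and 0.51 (difference -1.38 ± 0.26, adjusted p = 0.00223). The count of lower cytochromes was 17 to 22 when 1 array was left out, and 19 without C3H/HeJ deficient replicate 4. It was 18 with median centring, 16 with quantile normalization, 17 with normexp correction (1 higher) and 14 with spike-in scaling.

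Genes with a known sex bias in mouse liver, which follows the male and female rhythms of growth hormone, differed as well, and all mice were males. Of 20 male-biased genes all 20 fell in both strains, and 10 were lower and 0 higher in the difference (0 higher at an unadjusted p under 0.05, 1 higher without C3H/HeJ deficient replicate 4), with a median of -1.06. Over all genes 47.1% fell in WSB/EiJ and 25.1% in C3H/HeJ, and 13.5% were lower in the difference. Elovl3 (chromosome 19, 46209762 to 46209821), a fatty acid elongase high in males, had levels of -1.01, 0.79, 1.60 and 1.15 in the WSB/EiJ deficient group and 7.92, 8.17, 8.16 and 8.10 in the WSB/EiJ control group, against 1.94, 1.54, 1.85 and 3.88 in the C3H/HeJ deficient group and 5.53, 4.56, 5.22 and 5.49 in the C3H/HeJ control group. The control groups of the strains did not overlap and the deficient groups did so only at their edge. The difference was -4.56 ± 0.74, adjusted p = 0.000897. Hsd3b5, a male-specific steroid dehydrogenase, averaged 1.54 ± 0.92 and 7.46 ± 0.24 in WSB/EiJ deficient and control livers, against 5.94 ± 0.93 and 8.26 ± 0.10 in C3H/HeJ deficient and control livers (SD, n = 4) (difference -3.60 ± 0.61, adjusted p = 0.00119), and Cyp4a12a, an androgen-dependent fatty acid hydroxylase, differed by -1.99 ± 0.30, adjusted p = 0.000502.

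Of 14 female-biased genes 1 was higher and 6 lower (median difference -0.66). Cyp2b9 (chromosome 7, 26983484 to 26983543), a cytochrome high in females, had levels of -4.86, -5.51, -4.00 and -5.39 in the WSB/EiJ deficient group and -2.19, -1.70, -0.85 and -0.82 in the WSB/EiJ control group, against 1.27, 0.16, 2.59 and 0.78 in the C3H/HeJ deficient group and -1.71, -3.15, -0.82 and -2.15 in the C3H/HeJ control group. The strains overlapped on the control diet and moved apart on the deficient one, WSB/EiJ downwards and C3H/HeJ upwards. Both effects were called, -3.55 in WSB/EiJ and 3.16 in C3H/HeJ, and the difference was -6.71 ± 0.78, adjusted p = 6.72e-05, with 1 of 4 WSB/EiJ deficient arrays above background. Its relative Cyp2b13 was below background on all control arrays and rose at least 21.4-fold in C3H/HeJ (fitted difference -5.58 ± 0.97, adjusted p = 0.00135, with 2 of 4 WSB/EiJ deficient arrays above background). Cyp2a4, a female-predominant steroid hydroxylase, fell by 3.38 in WSB/EiJ and was at -0.02 in C3H/HeJ (difference -3.36 ± 0.32, adjusted p = 1.43e-05).

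Genes of fatty acid oxidation and ketogenesis were mostly lower. Of 39 tested, 22 were lower and 1 higher (median difference -0.78), with a median effect of -0.71 in WSB/EiJ and 0.18 in C3H/HeJ. The count of lower members was 14 with median centring and 6 with spike-in scaling, and the median stayed negative under all scalings (-0.85 to -0.25). Ppara (chromosome 15, 85632110 to 85632169), the receptor that drives this programme, had levels of 4.83, 4.72, 4.52 and 4.48 in the WSB/EiJ deficient group and 5.69, 5.67, 5.78 and 5.85 in the WSB/EiJ control group, against 5.91, 5.90, 6.66 and 6.56 in the C3H/HeJ deficient group and 6.25, 6.47, 6.11 and 6.22 in the C3H/HeJ control group. The WSB/EiJ deficient arrays lay below the other 12, and the C3H/HeJ groups overlapped. The difference was -1.10 ± 0.23, adjusted p = 0.00444. Pex11a, a peroxisome proliferation factor, fell by 0.58 in WSB/EiJ and rose by 0.71 in C3H/HeJ (difference -1.29 ± 0.17, adjusted p = 0.000192). Cpt1a, the gate of mitochondrial fatty acid import, had a difference of -0.10 ± 0.21, adjusted p = 0.749 with an interval of -0.54 to 0.35.

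The 1 higher member was Fgf21 (chromosome 7, 52869305 to 52869364), the hormone that the starved or stressed liver secretes. Its levels were 4.88, 4.92, 3.66 and 4.87 in the WSB/EiJ deficient group and -1.64, -0.88, -2.95 and -2.50 in the WSB/EiJ control group, against 3.33, 3.32, 3.29 and 2.34 in the C3H/HeJ deficient group and -0.45, 0.57, -0.19 and 0.44 in the C3H/HeJ control group. Deficient arrays lay above control arrays in both strains, and WSB/EiJ began lower and ended higher. The difference was 3.59 ± 0.60, adjusted p = 0.00102. Fgf21 is also a target of the amino acid stress factor ATF4, and of 28 genes of the unfolded protein and amino acid stress response 7 were higher and 3 lower (median -0.10, 0.42 with spike-in scaling, where 10 were higher and 0 lower), with 6 lower without C3H/HeJ control replicate 2. Trib3 (chromosome 2, 152163161 to 152163220), a pseudokinase induced by ATF4, had levels of 6.66, 6.39, 6.11 and 6.37 in the WSB/EiJ deficient group and 4.20, 2.88, 3.05 and 3.41 in the WSB/EiJ control group, against 4.33, 5.27, 4.59 and 4.45 in the C3H/HeJ deficient group and 5.06, 5.85, 5.36 and 4.85 in the C3H/HeJ control group. All 4 WSB/EiJ deficient arrays lay above the other 12, and the C3H/HeJ groups overlapped. It rose in WSB/EiJ by 3.00, the effect in C3H/HeJ was -0.62 and not called, and the difference was 3.62 ± 0.40, adjusted p = 5.26e-05. Slc7a11, the cystine importer, was above background only on the WSB/EiJ deficient arrays and rose at least 1.36-fold there (fitted difference 2.98 ± 0.34, adjusted p = 5.9e-05).

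Lipid droplet genes differed in both directions. Of 22 lipid droplet and PPAR-gamma targets 4 were higher and 7 lower (median -0.33, but 6 and 5 and a median of 0.19 with spike-in scaling), and the 4 became 2 without C3H/HeJ deficient replicate 2 or 4, C3H/HeJ control replicate 1, WSB/EiJ deficient replicate 1, 2 or 4 or WSB/EiJ control replicate 1 or 3. Mogat1 (chromosome 1, 78534677 to 78534736), an acyltransferase of triglyceride synthesis, had levels of -3.81, -4.23, -2.20 and -2.54 in the WSB/EiJ deficient group and -3.96, -3.65, -3.84 and -3.51 in the WSB/EiJ control group, against 1.83, 2.07, 2.01 and -0.01 in the C3H/HeJ deficient group and -4.72, -4.35, -3.97 and -5.57 in the C3H/HeJ control group. All 4 C3H/HeJ deficient arrays lay above every other array, and WSB/EiJ groups overlapped. The difference was -5.59 ± 0.71, adjusted p = 0.000155, with 1 of 4 C3H/HeJ control and 2 of 4 WSB/EiJ control arrays above background. Fitm1, a protein of droplet formation, fell by 2.23 in WSB/EiJ and rose by 1.12 in C3H/HeJ (difference -3.36 ± 0.36, adjusted p = 4.23e-05), whereas Hilpda, a lipase inhibitor on droplets, rose by 2.09 and 0.77 (difference 1.32 ± 0.15, adjusted p = 5.16e-05).

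Cidec (chromosome 6, 113374630 to 113374689), the droplet fusion protein of fatty liver, had levels of 3.93, 2.88, 3.55 and 3.35 in the WSB/EiJ deficient group and -1.20, -2.52, -2.40 and -2.88 in the WSB/EiJ control group, against 2.81, 3.72, 2.87 and 2.52 in the C3H/HeJ deficient group and -1.84, -2.41, -2.23 and -1.17 in the C3H/HeJ control group. Deficient arrays were clear of control arrays and the strains overlapped on both diets. The difference of 0.79 ± 0.52, adjusted p = 0.277 did not pass and its interval was -0.33 to 1.90. Plin2, the main coat protein of droplets (-0.44 ± 0.17, adjusted p = 0.0756, interval -0.80 to -0.07), Pparg (0.50 ± 0.32, adjusted p = 0.259, interval -0.18 to 1.17) and Cd36, a fatty acid transporter (-0.43 ± 0.35, adjusted p = 0.382, interval -1.18 to 0.32), did not pass either. Plin2 was called with array weights (-0.54, adjusted p = 0.0164) and without C3H/HeJ control replicate 4 (-0.55, 0.0188). Of 28 genes of fatty acid and triglyceride synthesis 1 was higher and 6 lower, or 25% called. The lower count was 11 without C3H/HeJ deficient replicate 2, 4 with median centring and 3 with spike-in scaling. Mlxipl, the carbohydrate-sensing factor ChREBP, differed by -0.98 ± 0.15, adjusted p = 0.000524 and Gpat3, a glycerol-phosphate acyltransferase, by 1.08 ± 0.16, adjusted p = 0.000524. A second, dimmer Mlxipl probe gave 0.31. The Mlxipl call was lost with the mean of its probes (-0.34, adjusted p = 0.0935) and with spike-in scaling (-0.46, 0.108).

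Of 26 lipoprotein genes 2 were higher and 4 lower, or 23.1% called, close to the share over all genes. The balance turned with the scaling. It was 5 higher and 2 lower under quantile normalization, 5 and 3 under normexp correction, 2 and 1 under median centring and 5 and 1 under spike-in scaling, where the median was 0.10 in place of -0.42. With the 75th percentile 11 were lower without C3H/HeJ deficient replicate 2, against 2 without C3H/HeJ deficient replicate 3 or 4, C3H/HeJ control replicate 3 or 4, WSB/EiJ deficient replicate 1, 2 or 4 or WSB/EiJ control replicate 1 or 2. Apoa4, an apolipoprotein of triglyceride-rich particles, rose by 3.78 and 2.40 (difference 1.38 ± 0.36, adjusted p = 0.0144), and Sar1b, the GTPase that starts vesicles for lipoprotein export, differed by -1.05 ± 0.19, adjusted p = 0.00179. Mttp, which loads lipid onto apolipoprotein B, fell by 0.98 and 0.63 (difference -0.35 ± 0.16, adjusted p = 0.113, interval -0.69 to -0.02, but -0.46, adjusted p = 0.0255 without C3H/HeJ deficient replicate 2). Of 26 cholesterol synthesis genes 7 were lower and 0 higher (0 higher at an unadjusted p under 0.05), or 26.9% called. The lower count was 3 with median centring, 4 with quantile normalization, 1 with spike-in scaling, 16 without WSB/EiJ control replicate 4, 12 without C3H/HeJ deficient replicate 2 and 4 without C3H/HeJ deficient replicate 3 or 4, WSB/EiJ deficient replicate 1 or 4 or WSB/EiJ control replicate 1, 2 or 3. Fdft1, squalene synthase, differed by -1.17 ± 0.29, adjusted p = 0.0118, and with spike-in scaling by -0.65, adjusted p = 0.103. Its second, dim probe gave -0.44.

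Of 26 bile acid genes 4 were higher and 13 lower (median -0.63, 5 lower with median centring, 7 with normexp correction, 3 with spike-in scaling). Cyp39a1 (chromosome 17, 43887735 to 43887794), the 24-hydroxycholesterol 7-alpha-hydroxylase of bile acid synthesis, was the largest higher one, with levels of 2.37, 2.33, 1.73 and 1.29 in the WSB/EiJ deficient group and -1.22, -2.29, -2.89 and -2.63 in the WSB/EiJ control group, against 4.31, 3.96, 4.02 and 4.70 in the C3H/HeJ deficient group and 3.78, 4.39, 4.61 and 4.35 in the C3H/HeJ control group. The WSB/EiJ control arrays were far below the rest and the C3H/HeJ groups overlapped. The effect in C3H/HeJ (-0.03) was not called and the difference was 4.22 ± 0.47, adjusted p = 5.26e-05. Slc10a2, the apical bile acid transporter, differed by 1.91 ± 0.28, adjusted p = 0.000405, and Abcb11, the bile salt export pump, fell by 1.26 and 0.96 (difference -0.30 ± 0.14, adjusted p = 0.133).

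The diet targets the methyl cycle itself. Of 47 genes of methionine, folate and choline metabolism 1 was higher and 11 lower, or 25.5% called, near the 22.6% over all genes (median difference -0.41). The balance rests on the scaling. It was 3 higher and 3 lower under median centring, 3 and 6 under quantile normalization, 3 and 7 under normexp correction, and 5 and 2 with a median of 0.11 under spike-in scaling. The count of lower members was 5 (without C3H/HeJ deficient replicate 3, C3H/HeJ control replicate 3 or WSB/EiJ deficient replicate 4) to 18 (without C3H/HeJ deficient replicate 1). It was 17 without C3H/HeJ deficient replicate 2, 7 without C3H/HeJ deficient replicate 4 or WSB/EiJ control replicate 4, and 6 without C3H/HeJ control replicate 1, WSB/EiJ deficient replicate 1 or 2 or WSB/EiJ control replicate 3. The higher count was 0 to 2 when 1 array was left out. Mat1a (chromosome 14, 41937140 to 41937199), the liver enzyme that makes S-adenosylmethionine, had levels of 5.54, 5.12, 6.13 and 4.81 in the WSB/EiJ deficient group and 7.01, 6.59, 7.15 and 7.0 in the WSB/EiJ control group, against 6.91, 6.83, 7.33 and 7.84 in the C3H/HeJ deficient group and 7.47, 6.55, 7.34 and 7.41 in the C3H/HeJ control group. The WSB/EiJ deficient arrays lay below the other 12, and the C3H/HeJ groups overlapped. The difference was -1.57 ± 0.41, adjusted p = 0.0151. Chdh, which oxidises choline towards betaine, differed by -0.72 ± 0.16, adjusted p = 0.00724 and Gamt, which methylates guanidinoacetate to creatine, by -1.12 ± 0.26, adjusted p = 0.00871. Chdh was not called with median centring (-0.59, adjusted p = 0.0662) or spike-in scaling (-0.19, 0.431), nor Gamt with spike-in scaling (-0.60, 0.0808).

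Bhmt, which remethylates homocysteine with betaine, differed by -1.05 ± 0.32, adjusted p = 0.0317, and this call was lost without C3H/HeJ control replicate 1 or 3, C3H/HeJ deficient replicate 3 or 4, WSB/EiJ control replicate 3 or 4, or WSB/EiJ deficient replicate 2 or 4. It was also lost with median centring (-0.93, adjusted p = 0.0833), no background filter (-1.05, 0.0593), spike-in scaling (-0.53, 0.183), quantile normalization (-0.53, 0.111) and normexp correction (-0.50, 0.12). Gnmt, which disposes of surplus S-adenosylmethionine, fell by 2.16 and 1.49 (difference -0.67 ± 0.41, adjusted p = 0.239, interval -1.55 to 0.21). Pemt, which makes phosphatidylcholine by methylation, had a difference of -0.30 ± 0.20, adjusted p = 0.287 (interval -0.73 to 0.13). It was -0.45, adjusted p = 0.0487 without C3H/HeJ deficient replicate 1. Cbs, the entry to transsulfuration (-0.27 ± 0.22, adjusted p = 0.37), and Mthfd2, a mitochondrial folate enzyme (0.34 ± 0.43, adjusted p = 0.576), did not pass. Among 15 DNA methylation enzymes and readers 0 were higher and 2 lower (2 higher and 2 lower at an unadjusted p under 0.05, 1 higher without C3H/HeJ control replicate 2 or 4 or WSB/EiJ deficient replicate 3, and 3 higher and 1 lower with spike-in scaling). Tet1, which oxidises methylcytosine, fell by 2.48 and 0.96 (difference -1.52 ± 0.22, adjusted p = 0.000405), and Dnmt3b, a de novo methyltransferase, had a difference of 0.02 ± 0.20, adjusted p = 0.961 (interval -0.42 to 0.45).

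Of 33 oxidative stress and glutathione genes 4 were higher and 16 lower (median -0.61, 10 lower with median centring, 6 with quantile normalization or normexp correction, and 5 higher and 4 lower with spike-in scaling). Hmox1, haem oxygenase, differed by 1.38 ± 0.24, adjusted p = 0.00126, Nqo1, a quinone reductase, by -1.44 ± 0.24, adjusted p = 0.00109 and Gstm4, a glutathione transferase, by -1.45 ± 0.23, adjusted p = 0.00069. Of 41 hepatocyte function genes 12 were lower and 0 higher (0 higher at an unadjusted p under 0.05, 1 higher without C3H/HeJ deficient replicate 4). That is 29.3% called, against 22.6% of all genes. The lower count was 22 without C3H/HeJ deficient replicate 2, 7 without C3H/HeJ deficient replicate 3, C3H/HeJ control replicate 3 or WSB/EiJ deficient replicate 1, and 5 without WSB/EiJ deficient replicate 4 or with median centring. It was 4 with quantile normalization (2 higher), and 3 with normexp correction (1 higher) or spike-in scaling (3 higher). Alb, albumin, fell by 0.96 and 0.46 (difference -0.50 ± 0.22, adjusted p = 0.111). Its difference was called without C3H/HeJ deficient replicate 2 or C3H/HeJ control replicate 4 (-0.63 in both, adjusted p = 0.0369 and 0.0435).

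Of 40 subunits and assembly factors of the mitochondrial respiratory chain all 40 fell in WSB/EiJ and 27 in C3H/HeJ, and 20 were lower in the difference, but 0 were so with median centring. Over all genes 47.1% fell in WSB/EiJ, 25.1% fell in C3H/HeJ and 13.5% were lower in the difference. The 20 became 32 and 34 without C3H/HeJ deficient replicates 1 and 2, 7 to 13 without C3H/HeJ deficient replicate 3, C3H/HeJ control replicate 1 or 3, WSB/EiJ deficient replicate 1, 2 or 4 or WSB/EiJ control replicate 3, and 15 without C3H/HeJ deficient replicate 4. The summed signal of 7 hepatocyte markers, 1 of them lower, was 12.23 to 12.53, 13.27 to 13.37, 12.40 to 13.09 and 13.01 to 13.53 in the WSB/EiJ deficient, WSB/EiJ control, C3H/HeJ deficient and C3H/HeJ control groups. This sum moved with the lower hepatocyte lists, opposite to the macrophage sum, and its part in them was not tested.

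**Figure D4:**
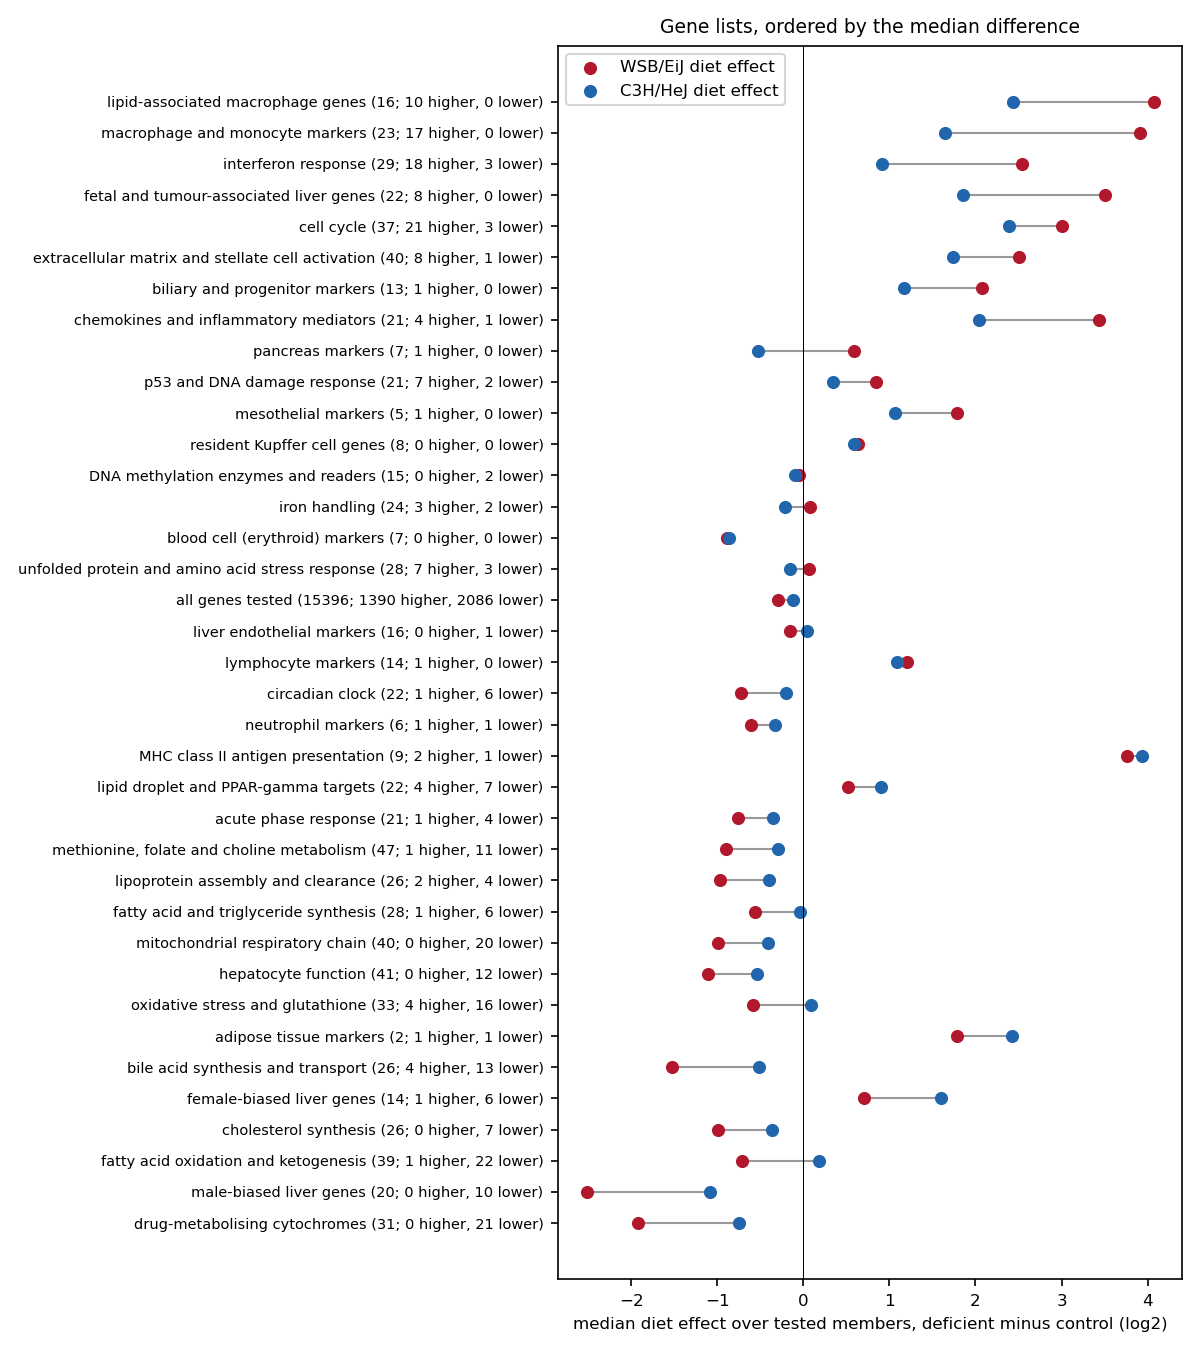
Median diet effect (log2, deficient minus control) over the tested members of 36 gene lists and over all genes tested, in WSB/EiJ (red) and C3H/HeJ (blue), ordered by the median difference. The number tested and the counts of higher and lower calls stand beside each name, with macrophage and interferon lists at the top and drug-metabolising cytochromes (-1.92 and -0.75) at the foot.

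The largest difference among genes above background in every group was that of Nuggc (chromosome 14, 66267169 to 66267228), a nuclear GTPase of germinal centre B cells, with levels of -4.11, -4.34, -2.96 and -3.92 in the WSB/EiJ deficient group and 3.32, 4.24, 3.63 and 3.87 in the WSB/EiJ control group, against 0.94, 1.66, 1.44 and 3.1 in the C3H/HeJ deficient group and 2.87, 1.99, 2.67 and 2.47 in the C3H/HeJ control group. It fell by 7.60 in WSB/EiJ, where the diet groups were far apart, and the C3H/HeJ effect of -0.71 was not called (difference -6.88 ± 0.57, adjusted p = 6.34e-06). On the other side stood Ly6a (chromosome 15, 74825553 to 74825612), the stem cell antigen Sca-1, with levels of 3.34, 2.93, 2.91 and 2.72 in the WSB/EiJ deficient group and -2.24, -2.67, -2.00 and -3.10 in the WSB/EiJ control group, against 2.59, 3.06, 2.00 and 1.92 in the C3H/HeJ deficient group and 2.85, 1.71, 3.76 and 3.36 in the C3H/HeJ control group. Its WSB/EiJ control arrays lay below all others and the remaining groups overlapped. The difference was 6.01 ± 0.54, adjusted p = 1.24e-05, the C3H/HeJ effect (-0.53) not being called.

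Csn3, kappa-casein, differed by 4.74 ± 0.46, adjusted p = 2.03e-05, Cpe, the prohormone-processing carboxypeptidase E, by 4.48 ± 0.67, adjusted p = 0.000498 and the transcript 1500009C09Rik by 4.31 ± 0.38, adjusted p = 1.03e-05. In these 3 the gene rose in WSB/EiJ (by 4.42, 4.69 and 4.01) and the C3H/HeJ effect was not called. Irx1, a homeobox factor, differed by -4.90 ± 0.70, adjusted p = 0.000359, Dkk4, a secreted Wnt inhibitor, by -4.12 ± 0.78, adjusted p = 0.00256 and Pcp4l1, a calmodulin-binding peptide homologue, by -4.18 ± 0.57, adjusted p = 0.000253, each with a fall in WSB/EiJ and no called effect in C3H/HeJ. Slc13a2, a dicarboxylate transporter, fell by 6.58 in WSB/EiJ and by 3.6 in C3H/HeJ (difference -2.98 ± 0.66, adjusted p = 0.00622).

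Effects of opposite direction were called in 122 genes, as in Cyp2b9 and Col5a2 above. Serpina5, the protein C inhibitor, fell by 2.75 in WSB/EiJ and rose by 1.75 in C3H/HeJ (difference -4.50 ± 0.50, adjusted p = 4.88e-05). Ear10, an eosinophil-associated ribonuclease, fell by 2.04 in WSB/EiJ and rose by 1.88 in C3H/HeJ (difference -3.93 ± 0.46, adjusted p = 7.61e-05), and Rnase2a, of the same family, fell by 3.07 in WSB/EiJ and rose by 1.11 in C3H/HeJ (difference -4.18 ± 0.48, adjusted p = 6.22e-05). The sequences of this ribonuclease family are close, so their probes may share signal. Rab40b, a small GTPase, went the other way: it was above background in WSB/EiJ on the deficient diet alone, rose there at least 2.74-fold and fell by 1.72 in C3H/HeJ (fitted difference 4.18 ± 0.26, adjusted p = 4.25e-07). Sort1, a sorting receptor for lipoproteins, rose by 2.40 in WSB/EiJ and fell by 0.94 in C3H/HeJ by its brightest probe, but its 3 probes gave differences of -0.31 to 3.34.

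Where a group was not well above background on any array, sizes are bounds. Obp2a (chromosome 2, 25557738 to 25557797), an odorant-binding lipocalin, had levels of -7.21, -7.34, -6.90 and -6.34 in the WSB/EiJ deficient group and -5.99, -5.15, -6.07 and -6.06 in the WSB/EiJ control group, against -6.43, -7.02, -6.25 and -4.63 in the C3H/HeJ deficient group and 0.78, 0.70, 0.93 and 0.97 in the C3H/HeJ control group. It was above background on the C3H/HeJ control arrays alone and fell there at least 48.8-fold on the deficient diet. Tm4sf20, a transmembrane 4 L6 family protein, was above background on the WSB/EiJ deficient arrays alone and rose at least 7.9-fold. BC016579 rose at least 12.9-fold in WSB/EiJ. Fam83a, of a family of casein kinase anchors, rose at least 12.7-fold in C3H/HeJ and was below background on all WSB/EiJ arrays. Moxd1, a monooxygenase-like protein, fell by 9.77 in WSB/EiJ, with 1 of 4 deficient arrays above background, and at least 8.63-fold in C3H/HeJ. Cpa1, a pancreatic carboxypeptidase, rose at least 10.9-fold in WSB/EiJ, where its levels were -2.30, -0.78, -3.27 and 3.35 on the deficient diet, so that replicate 4 stood far above the rest. Its fitted difference was not called with normexp correction (1.93, adjusted p = 0.183) or with all 24 arrays in the fit (5.29, 0.05). Of 7 pancreas markers tested, Cpa1 was the 1 called (2 were without WSB/EiJ deficient replicate 3).

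Of 22 clock genes 1 was higher and 6 lower (3 lower without WSB/EiJ deficient replicate 1 or with normexp correction, 4 with median centring, and 2 higher and 2 lower with spike-in scaling). Dbp (chromosome 7, 52965322 to 52965381), a clock output factor, had levels of 0.92, 0.34, 0.50 and 0.50 in the WSB/EiJ deficient group and 0.55, 0.47, 1.24 and 0.43 in the WSB/EiJ control group, against 7.01, 7.15, 7.54 and 7.53 in the C3H/HeJ deficient group and 7.48, 7.85, 7.43 and 7.36 in the C3H/HeJ control group. The strains were far apart and the diet groups overlapped within each. The difference of responses was 0.12 ± 0.27, adjusted p = 0.776, with an interval of -0.47 to 0.70. Arntl, the core clock factor BMAL1, averaged 2.02 ± 0.10 and 2.72 ± 0.05 in WSB/EiJ deficient and control livers, against -2.66 ± 0.45 and -1.75 ± 0.74 in C3H/HeJ deficient and control livers (SD, n = 4) (difference 0.21 ± 0.40, adjusted p = 0.722). Among the lower ones were Hlf, a clock output factor (-2.15 ± 0.31, adjusted p = 0.000411), and Noct, a clock-controlled phosphatase (-1.15 ± 0.17, adjusted p = 0.000462, its other probe -0.10, not called with the mean of its probes, adjusted p = 0.191, or with spike-in scaling, 0.0658). The labels do not give the hour at which livers were taken, so hour and strain cannot be told apart.

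The remaining lists had few calls. Of 24 iron handling genes 3 were higher and 2 lower (20.8% called, 0 to 4 lower when 1 array was left out, 0 with median centring, and 6 higher and 0 lower with quantile normalization or spike-in scaling). Bmp6, the ligand that induces hepcidin, was at 1.53 ± 0.33, adjusted p = 0.00524 and Hamp, hepcidin, at 1.63 ± 0.78, adjusted p = 0.136 (interval -0.03 to 3.29). Of 16 liver endothelial genes 1 was lower, Stab2, a scavenger receptor of sinusoidal cells (-1.47 ± 0.30, adjusted p = 0.00375 by its brightest probe, -0.22 and -0.31 by dimmer ones, and -0.67, adjusted p = 0.0125 for their mean). In that list 0 were higher (1 higher at an unadjusted p under 0.05 and 1 without C3H/HeJ deficient replicate 1). Of 13 biliary and progenitor genes 1 was higher (4 without WSB/EiJ deficient replicate 3), Cldn4, a tight junction protein (fitted difference 2.32 ± 0.47, adjusted p = 0.00388), and of 5 mesothelial markers 1, Wt1 (2.44 ± 0.59, adjusted p = 0.0102, not called with all 24 arrays in the fit). Cldn4 was above background on 0 control arrays of either strain and on 1 of 4 C3H/HeJ deficient arrays, and rose at least 2.41-fold in WSB/EiJ. Of 2 adipose tissue markers 1 was higher and 1 lower, the higher one losing its call in 11 of the 16 fits with 1 array left out, and of 7 erythroid markers 0 were called by limma (0 at an unadjusted p under 0.05).

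**Figure D5:**
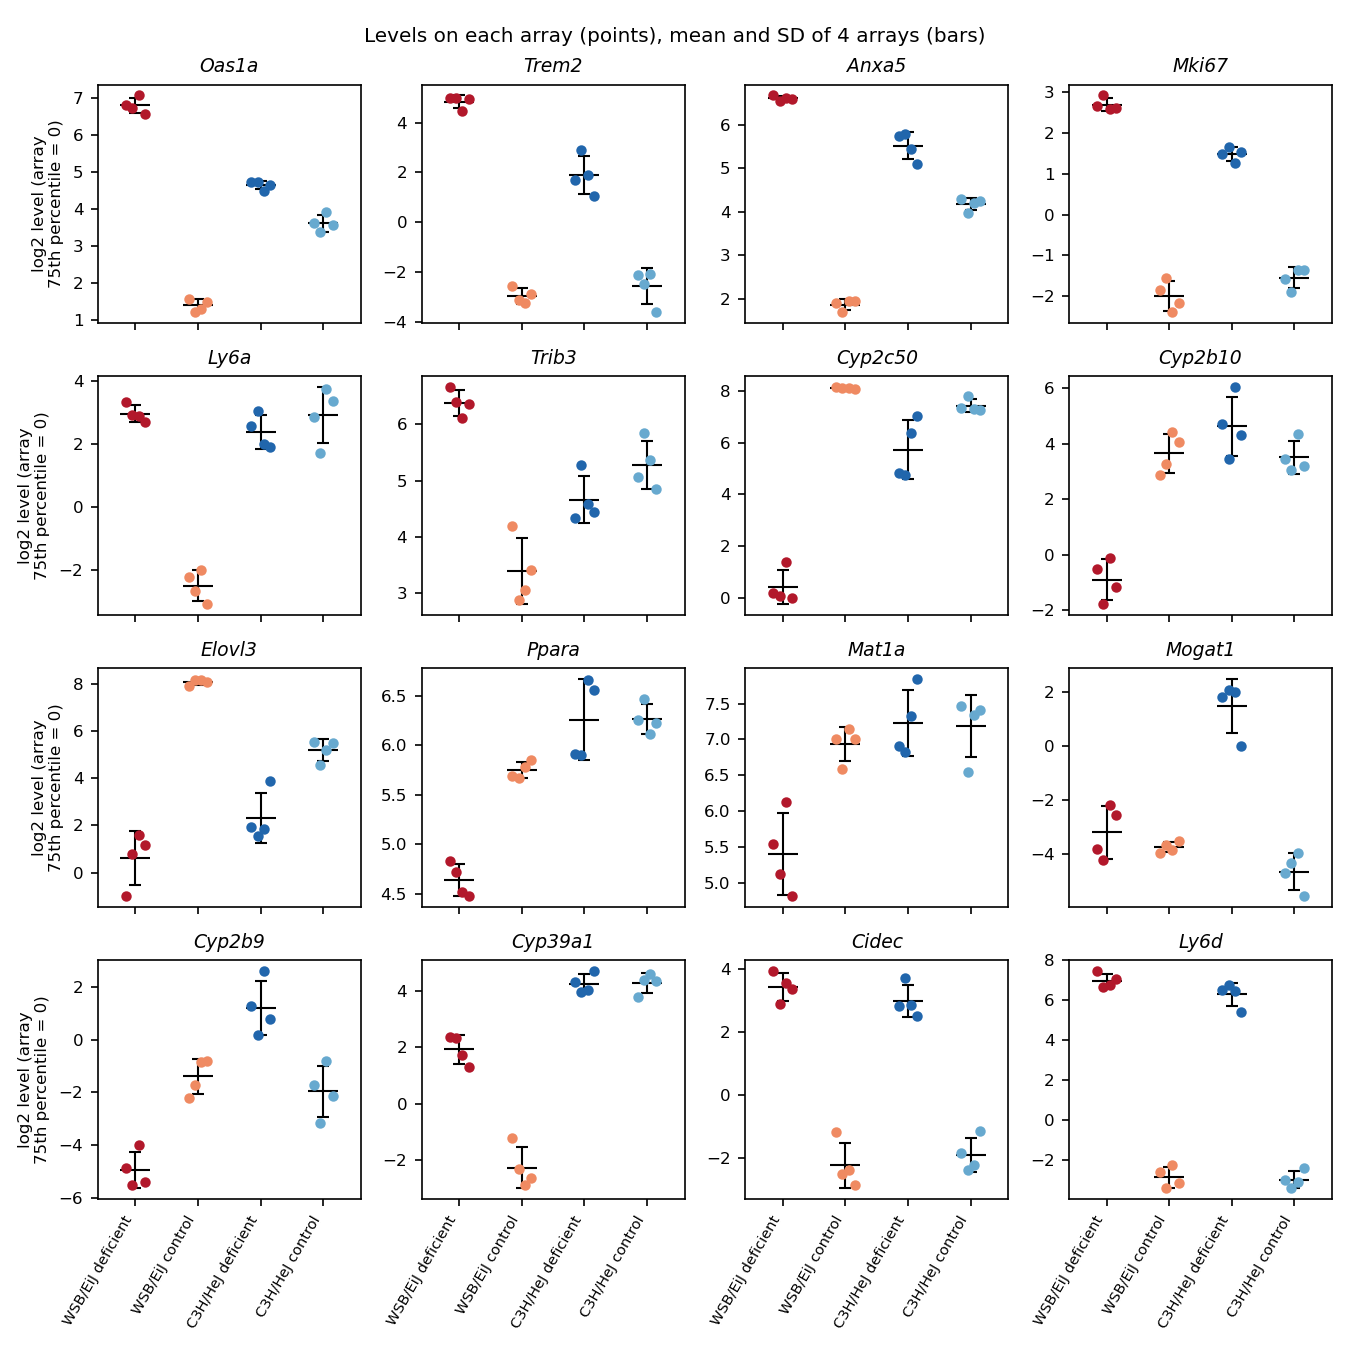
Log2 level of 16 genes on each array (points), with the mean and SD of the 4 arrays of each group (bars), in WSB/EiJ deficient, WSB/EiJ control, C3H/HeJ deficient and C3H/HeJ control livers. In Cyp2c50 and Cyp2b10 the WSB/EiJ deficient group is lowest, in Ly6a the WSB/EiJ control group is lowest, in Mogat1 the C3H/HeJ deficient group is highest, and in Cidec and Ly6d the strains overlap on each diet.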

How the data were processed

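Liver RNA was measured on 16 of the series' 1-colour Agilent arrays, and each of the 3 slides held arrays of every group. Per the file headers, the deposited spot intensities are processed signals from Agilent Feature Extraction 10.7, whose probe positions follow the mouse build mm9. The authors' deposited table of normalized intensity values holds the same processed signals, each array multiplied by its own constant, and was used as an alternative. Control spots and 2178 outlier spots were left out. The log2 processed signal minus the array's 75th percentile was tested with limma 3.58.1 in R 4.3.3 on the group means of the 16 arrays, with no covariate. The fit took probes that exceeded background clearly in 1 group or more, on each of its 4 arrays, the brightest probe stood for a gene, and p-values were adjusted over 15396 genes by the Benjamini-Hochberg method. The 22781 gene probes without a gene name were left out.

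The genes named were the 12 largest differences in each direction with at least 3 arrays above background in each group and 1 sign on all slides, the 4 largest with a group below background, up to 2 members of each of 36 gene lists, a panel of 68 genes, and up to 6 genes with opposite effects. Not every gene of the lists and panel is printed, and some members counted in the lists are not reported here by name. The members and lists were chosen with earlier results of these data known, so the counts of the lists are no independent support. The scripts were tested on simulated data. The number of arrays limits the precision. Scaling, background correction, filters, slide, replicate number, weights, thresholds and single arrays were varied.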

Additional observations from a re-analysis of the deposited data

Results flagged for a closer look

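The diet response itself differed between WSB/EiJ and C3H/HeJ in 3476 genes by the test of the difference, and in 122 of them both diet effects were called with opposite signs.

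Among 120 of the genes named, 1 of the 4 arrays of a group stood far from the other 3 in 24 of 480 groups (5%), and chance alone flags about 1 in 20 groups. WSB/EiJ deficient replicate 3 was the lowest of its group in Trem2 (log2 level 4.47), Timp1 (2.00), Fgf21 (3.66) and Cpe (2.70) and the highest in Cyp2c50 (1.39) and Cyp2e1 (8.84). In each of these 6 genes it lay on the side of the control arrays. WSB/EiJ deficient replicate 2 was lowest in Cyp2b13 (-7.49), where it was below background.

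In the WSB/EiJ control group, replicate 1 was lowest in Cyp4a12a (6.39) and Ubd (-5.10), replicate 2 highest in Obp2a (-5.15), which is below background there, replicate 3 highest in Dbp (1.24) and Slc13a2 (4.80), and replicate 4 lowest in Fdft1 (3.75). C3H/HeJ deficient replicate 4 was lowest in Fgf21 (2.34) and Mogat1 (-0.01), also on the side of the controls, and replicate 3 highest in Nqo1 (0.27).

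In the C3H/HeJ control group, replicate 1 was highest in Fdft1 (4.96), and replicate 2 was highest in Cyp2c50 (7.79) and lowest in Hamp (6.32) and Mat1a (6.55). Replicate 4 of that group was lowest in Bbc3 (3.99), Pparg (-1.68) and Wt1 (-3.29) and highest in Rnase2a (0.54).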

How the results depend on the processing

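The count of 3476 differing genes was recomputed under 34 settings, 18 of processing and 16 that leave out 1 array. Of the genes named with a called difference, 0 changed direction, and 14 of 96 lost their call under 1 or more of those that keep the threshold, 8 of them with spike-in scaling. Among these 96 the difference moved by over 1.5 times in 35 with normexp correction, 16 with spike-in scaling, 6 with the mean of a gene's probes and 4 with quantile normalization, and in 0 when 1 array was left out. Of 24 named without a called difference 17 were called under 0 settings. With an adjusted p of 0.01, 1431 genes differed (689 higher, 742 lower) and 3879 diet effects were called in C3H/HeJ. With an absolute log2 value of at least 1, 1711 genes differed (749 lower), and 4914 diet effects were called in WSB/EiJ and 2251 in C3H/HeJ. The lower count moved most with scaling: it was 1243 with quantile normalization, 1110 with normexp correction, 827 with median centring and 397 with scaling on 7 spike-in probes, where the higher count was 2939. It was 1343 with no background filter and 3186 with array weights. Leaving out 1 array gave 2543 to 4318 differing genes, 1087 to 1634 higher, 1414 to 2684 lower, 10434 to 11451 diet effects in WSB/EiJ and 4748 to 8038 in C3H/HeJ, the last without C3H/HeJ deficient replicates 2 and 4. With slide as a random block 1422 genes were higher and 2143 lower. The replicate block gave 1302 higher and 1867 lower (3169 in all). Replicate numbers did not pair the samples: 2 of 24 same-numbered pairs correlated above 0.1, and 0 of 16 arrays correlated best with their own number. Signals near background limit the size of the change in dim genes.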

Other observations

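Probes without a gene name were tested in 1 further fit together with the named genes. Of 7241 such probes above background, 1031 (14.2%) differed, 239 higher and 792 lower in WSB/EiJ, with a median difference of -0.27.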
